A study of Mus musculus with 6 samples.

Results

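Microfibrils are thin extracellular filaments built from fibrillin, and elastic fibers are microfibrils that carry a core of cross-linked elastin. The 10 genes described here encode fibrillin-1 (Fbn1), elastin (Eln), fibulins 1, 2 and 5 (Fbln1, Fbln2, Fbln5), latent TGF-beta binding proteins 1, 3 and 4 (Ltbp1, Ltbp3, Ltbp4), lysyl oxidase (Lox) and lysyl oxidase-like 1 (Loxl1). They were chosen by name out of 54532 genes in the count table, with earlier results of these data known.

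RNA of whole hearts was sequenced from 3 resistant and 3 sensitive C57BL/6 mice, each 3 months old, to compare the transcripts of hearts whose Na/K-ATPase α1 subunit binds cardiotonic steroids with low or high affinity. Resistant (α1 r/rα2 s/s) mice carried the natural rodent α1, and sensitive (α1 s/sα2 s/s) mice carried an α1 made sensitive by introduced amino acid substitutions. The α2 subunit was the sensitive form in both genotypes. Each library held RNA of 1 heart, and the totals ran from 19309312 to 20470065 counts.

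The altered α1 was carried in every cell type, not in a cardiac cell type alone, and per the study's methods the sequenced animals were males and the resistant ones were littermate controls. Cardiomyocyte markers were abundant in all 6 libraries: Myh6, the α myosin heavy chain gene, was the most abundant of 6 cardiomyocyte markers, and the 6 together summed to between 38536 and 48421 CPM, normalised counts per 1000000 counts, in a heart.

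Fibrillin monomers assemble end to end outside the cell into beaded microfibrils, on which elastin is deposited with the help of fibulins and then cross-linked by lysyl oxidases. Latent TGF-beta binding proteins attach to fibrillin and hold the growth factor TGF-beta in an inactive store in the matrix. In the heart this network lies around vessels, in the valves, in the epicardium and between muscle layers, and fibroblasts and smooth muscle cells make most of it. Inherited loss of fibrillin-1 function causes Marfan syndrome.

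Of the 10 genes, 1 was downregulated in sensitive hearts, 0 were upregulated and 9 were not called, where a call is an adjusted p under 0.05 in edgeR. The downregulated gene was Fbn1. Over all 14866 genes tested, 214 were called (1.44%), with 98 downregulated (0.659%) and 116 upregulated (0.780%). Because the 10 genes were chosen with earlier results known, their count beside these shares is a description. All 10 genes passed the filter on low counts. The log2 fold change (sensitive over resistant) was below 0 for 6 and above 0 for 4, and 2 had an unadjusted p under 0.05. Their median was -0.09, against -0.01 over all genes tested. Leaving out 1 heart moved the median of the 10 to between -0.13 (without resistant heart 3) and -0.02 (without resistant heart 2). limma voom also called 1 of the 10, and DESeq2 called 2, Fbn1 and Ltbp4.

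The hearts of the genotypes did not overlap for 2 of the 10 genes, Fbn1 and Ltbp4, both lower in sensitive hearts, and for 0 genes in the other direction. Among all genes tested, 9.98% did not overlap with sensitive hearts lower and 10% with sensitive hearts higher. The count of genes among the 10 is too small to be set apart from those shares.

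**Figure D1:**
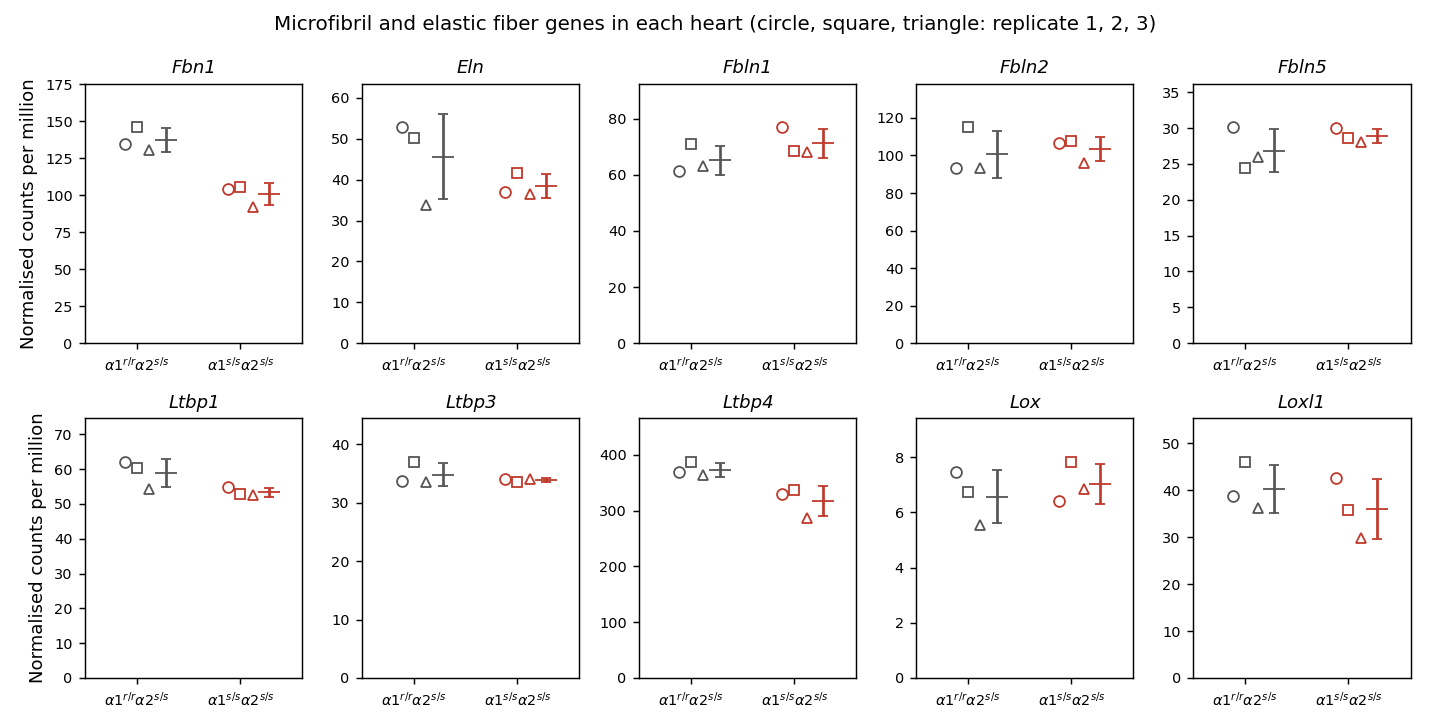
CPM of each of the 10 genes in every heart, with resistant hearts in grey, sensitive hearts in red, each replicate with its own symbol, and the mean with its SD (n = 3) beside the points. For Fbn1 and Ltbp4 every sensitive heart lies below every resistant heart, and for the other 8 genes the points of the genotypes overlap.

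Fbn1, the gene of the main structural protein of microfibrils, stood at 134, 146 and 131 CPM in resistant hearts 1 to 3 and at 104, 106 and 92.0 CPM in sensitive hearts 1 to 3. All sensitive hearts lay below all resistant hearts, and within each genotype the hearts lay close together, with the third heart the lowest in both. The means were 137 ± 8.04 CPM and 101 ± 7.58 CPM (SD, n = 3). The transcript was lower by a log2 fold change of -0.45 (SE 0.08, 95% interval -0.61 to -0.28, adjusted p = 0.01), which is a change of -26.6%. The call was made again in 6 of 6 fits that left out 1 heart each, with adjusted p from 0.0166 to 0.044 and log2 fold changes from -0.48 to -0.38. Libraries of whole heart cannot tell fewer cells that make a transcript apart from less transcript in each cell.

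Fbn1 (ENSMUSG00000027204) lies on the minus strand of chromosome 2 from 125300594 to 125507993 in mm10, with 65 merged exons and 12128 exon bases. A gene on the opposite strand, Gm9913, shares 2442 bases of exon with it and had between 0 and 6 counts in a heart. Whether reads were assigned by strand is not stated, and if it was not used, reads from the shared bases are missing from both genes in both genotypes.

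Fbn1 is in the tenth of the tested genes with the longest exons. Of 1322 tested genes with at least 10000 exon bases, a limit set after the values were seen, 18 were downregulated (1.36%, against 0.659% of all genes tested) and 6 upregulated, a difference that was not tested, and their median log2 fold change was -0.03. When the trend with length was fitted in each heart and taken out, Fbn1 had a log2 fold change of -0.42 and an adjusted p of 0.0128.

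The share of counts from the mitochondrial genome also differed between the genotypes without overlap. It was 23.9%, 23.4% and 24.4% in resistant hearts and 25.0%, 25.3% and 26.0% in sensitive hearts. With globin genes and genes of the mitochondrial genome left out, the log2 fold change of Fbn1 was -0.44 with an adjusted p of 0.00868.

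Eln encodes tropoelastin, the soluble precursor of the elastic core. It stood at 52.9, 50.2 and 33.8 CPM in resistant hearts and 37.1, 41.7 and 36.6 CPM in sensitive hearts. Resistant hearts 1 and 2 were the highest of all, while resistant heart 3 was the lowest of the 6, so the genotypes overlapped. The log2 fold change was -0.25 (95% interval -0.53 to 0.03, adjusted p = 0.41), and it moved both ways with single hearts, to -0.42 without resistant heart 3 (adjusted p = 0.0514), -0.12 without resistant heart 1 (0.795) and -0.17 without resistant heart 2 (0.731). The interval holds both no difference and a decrease larger than the estimate for Fbn1.

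Fibulins are glycoproteins that bind elastin and basement membranes, and fibulin-5 links elastin to cells and to Loxl1. All 3 had log2 fold changes above 0 and none was called. Fbln1 ranged from 61.3 to 70.8 CPM in resistant hearts and from 68.2 to 77.1 CPM in sensitive hearts, with a log2 fold change of 0.13 (95% interval -0.05 to 0.30, adjusted p = 0.499) that ran from 0.07 without sensitive heart 1 to 0.20 without resistant heart 2. Fbln2 had nearly the same mean in both genotypes, with a log2 fold change of 0.04 (95% interval -0.15 to 0.23, adjusted p = 0.88). Its sign turned when either resistant heart 1 or resistant heart 3 was left out, to -0.01 in both cases. Fbln5 had its highest and its lowest value, 30.2 and 24.5 CPM, both in resistant hearts, with a log2 fold change of 0.11 (95% interval -0.11 to 0.32, adjusted p = 0.672) that ran from 0.04 without resistant heart 2 to 0.20 without resistant heart 1.

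Ltbp4, a latent TGF-beta binding protein, is known to be needed for elastic fiber assembly beside its hold on TGF-beta. It stood at 370, 388 and 363 CPM in resistant hearts and at 330, 337 and 287 CPM in sensitive hearts. Every sensitive heart was below every resistant heart, with sensitive heart 3 apart from the other sensitive hearts. Its log2 fold change was -0.23 (SE 0.08, 95% interval -0.39 to -0.07), and its p of 0.00764 gave an adjusted p of 0.156, so it was not called. Under DESeq2 the adjusted p was 0.0406 with a log2 fold change of -0.23, and over 9 alternatives the adjusted p ran from 0.0406 to 0.169. Ltbp4 was called in 0 of 6 edgeR fits that left out 1 heart. There the adjusted p ran from 0.169 to 0.415 and the log2 fold change from -0.27 to -0.16.

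Ltbp1 and Ltbp3, which bind the latent complexes of TGF-beta, were closer to 0. Ltbp1 ranged from 54.4 to 62.2 CPM in resistant hearts and from 52.5 to 54.8 CPM in sensitive hearts, so the highest sensitive heart lay just above the lowest resistant heart. Its log2 fold change was -0.14 (95% interval -0.31 to 0.02, adjusted p = 0.416). Ltbp3 stayed between 33.5 and 37.0 CPM in all 6 hearts, with a log2 fold change of -0.04 (95% interval -0.22 to 0.14, adjusted p = 0.879), and it turned to 0.01 without resistant heart 2.

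The lysyl oxidases are copper enzymes that oxidise lysines of elastin and collagen so that the chains become cross-linked. Lox was the scarcest of the 10 genes, at 5.53 to 7.45 CPM in resistant hearts and 6.40 to 7.84 CPM in sensitive hearts. Its log2 fold change of 0.10 had the widest interval of the 10 (95% interval -0.28 to 0.47, adjusted p = 0.852), and it was -0.01 without resistant heart 3. Loxl1, the paralog tied to elastic fiber upkeep, ranged from 36.3 to 46.1 CPM in resistant hearts and from 29.8 to 42.6 CPM in sensitive hearts. Its log2 fold change was -0.16 (95% interval -0.42 to 0.10, adjusted p = 0.588), and it was -0.04 without sensitive heart 3, -0.05 without resistant heart 2 and -0.30 without sensitive heart 1.

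The hearts themselves showed a pattern over these genes. Resistant heart 3 was the lowest of its genotype for 7 of the 10 genes and the highest for 0. Sensitive heart 3 was the lowest of its genotype for 8 and the lowest of all 6 hearts for 4. Resistant heart 2 was the highest of all 6 for 5 genes. Summed over the 10 genes, resistant hearts held 884, 945 and 841 CPM and sensitive hearts 823, 819 and 731 CPM, which did not overlap, and Ltbp4 made the largest part of that sum. Without Fbn1 and Ltbp4 the other 8 genes summed to 380, 411 and 346 CPM in resistant and 389, 376 and 352 CPM in sensitive hearts, which overlapped.

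**Figure D2:**
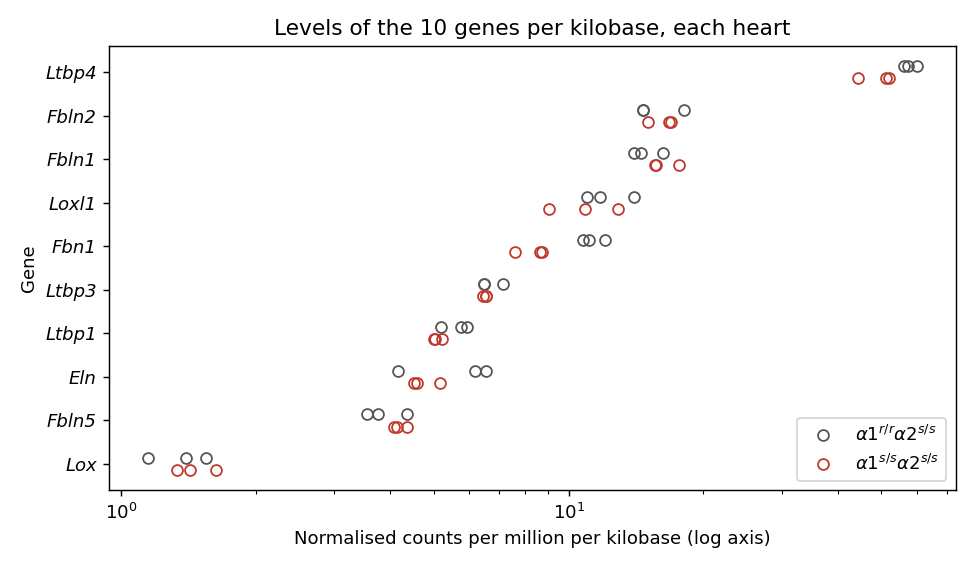
CPM per kilobase of exon for each of the 10 genes on a log axis, 1 point per heart, with resistant hearts in grey and sensitive hearts in red. Ltbp4 lies above the other genes in all 6 hearts, and Lox lies below them in all 6.

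Levels can be compared between genes once each is divided by its exon length. On CPM per kilobase, averaged over the 6 hearts, Ltbp4 led at 53.5 and made up 41.4% of the sum over the 10 genes. Fbln2 at 16.0 and Fbln1 at 15.6 came next and overlapped, with Fbln2 above Fbln1 in 4 of 6 hearts. Below them came Loxl1 at 11.6 and Fbn1 at 9.81, whose ranges overlapped although Loxl1 was above Fbn1 in 6 of 6 hearts. If reads from the 2442 bases shared with Gm9913 are missing, the level of Fbn1 is understated and its place below Loxl1 may not hold.

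Ltbp3 at 6.61 per kilobase was followed by Ltbp1 at 5.36 and Eln at 5.19, and the last pair overlapped with Ltbp1 above Eln in 3 of 6 hearts. Fbln5 at 4.04 overlapped Eln in range but was below it in 6 of 6 hearts, and Lox was last at 1.41. The average of Ltbp4 was 37.8 times that of Lox. The place of Ltbp3 depends on its gene model: the count table gives it 5190 bases, while the merged exons of the GENCODE annotation come to 9069 bases, with which it would stand at 3.78, below Fbln5.

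The balance between related genes was followed as 4 ratios of CPM per kilobase, each tested with an exact two-sided permutation test whose smallest possible p with 3 hearts against 3 is 0.1. The ratio of Fbn1 to Eln was 1.70, 1.95 and 2.59 in resistant hearts and 1.88, 1.69 and 1.68 in sensitive hearts (exact p = 0.2, adjusted p = 0.4). Resistant heart 3, where Eln was low, set the high end, and without it the log2 difference of the ratio moved from -0.23 to -0.06. The ratio of Lox to Loxl1 averaged 0.112 ± 0.0172 in resistant and 0.137 ± 0.0294 in sensitive hearts (SD, n = 3, exact p = 0.3, adjusted p = 0.4).

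The ratio of Fbln1 to Fbln2 ran from 0.897 to 0.986 in resistant and from 0.923 to 1.05 in sensitive hearts (exact p = 0.3, adjusted p = 0.4). The ratio of Ltbp1 to Ltbp4 averaged 0.0972 ± 0.00591 in resistant and 0.104 ± 0.00826 in sensitive hearts (SD, n = 3, exact p = 0.4, adjusted p = 0.4). In all 4 ratios the genotypes overlapped.

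Other components of microfibrils and elastic fibers, and factors of their assembly, were taken as a list of 29 genes, of which 27 were tested and Emilin3 and Fbln7 had at most 14 counts in a heart. The log2 fold change was below 0 for 21 and above 0 for 6, with a median of -0.14, while 51.6% of all genes tested were below 0 with a median of -0.01. Of the 27, 2 were downregulated, against 0.659% of all genes tested, 0 were upregulated, against 0.780%, and 3 had an unadjusted p under 0.05, as did 2150 of all 14866. limma voom called 2 of them, and DESeq2 and edgeR with no filter called 3 each. The downregulated genes were Hmcn1 and Fn1. This list and the gene lists that follow were chosen with earlier results of these data known. Their counts beside the shares over all genes are therefore a description.

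Hmcn1 encodes hemicentin-1, a very large matrix protein of the fibulin family. It stood at 57.3, 54.0 and 66.8 CPM in resistant hearts and 31.4, 39.1 and 40.7 CPM in sensitive hearts. All sensitive hearts were well below all resistant hearts. The log2 fold change was -0.68 (SE 0.11, adjusted p = 0.00546), and the call was made again in 6 of 6 fits that left out 1 heart.

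Fn1 encodes fibronectin, the matrix protein on which cells start to assemble fibrillin. It stood at 69.4, 78.0 and 62.5 CPM in resistant hearts and 46.7, 55.4 and 49.0 CPM in sensitive hearts. The genotypes did not overlap, and the log2 fold change was -0.47 (SE 0.09, adjusted p = 0.0222). The call needed most hearts: it was made in 2 of 6 fits that left out 1 heart, with adjusted p from 0.0156 to 0.0877. It was lost without resistant heart 1 (0.0709), resistant heart 2 (0.0834), sensitive heart 1 (0.0877) or sensitive heart 3 (0.0675). Vcan, the gene of versican, a proteoglycan that binds fibrillin microfibrils, stood at 21.9 to 26.1 CPM in resistant hearts and 17.7 to 18.8 CPM in sensitive hearts. It did not pass the threshold, with a log2 fold change of -0.41 and an adjusted p of 0.0619.

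**Figure D3:**
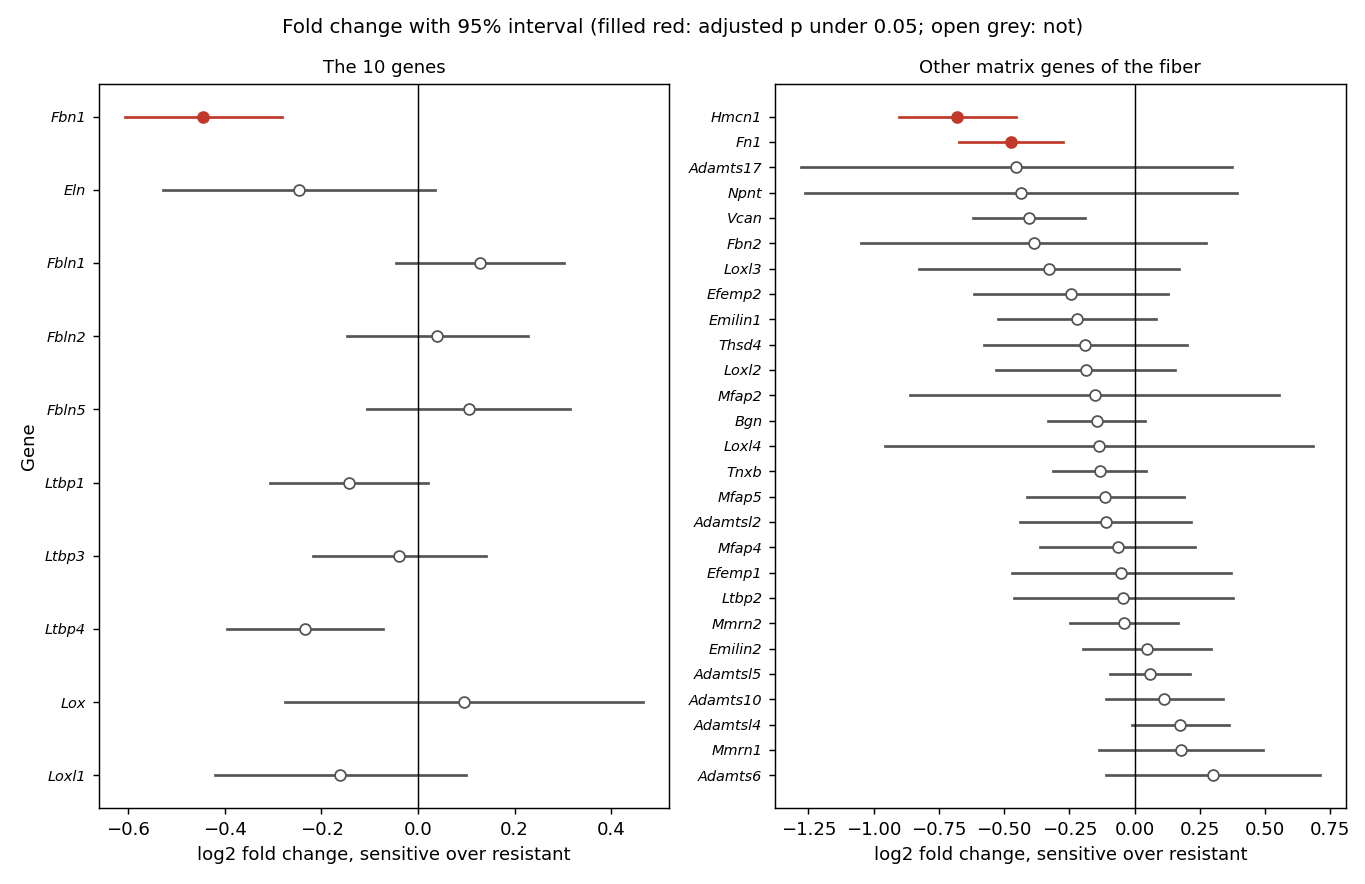
Log2 fold change of sensitive over resistant hearts with its 95% interval for the 10 genes on the left and the 27 tested genes of the wider list on the right, where filled red points have an adjusted p under 0.05. Fbn1, Hmcn1 and Fn1 are filled, and on the right 21 of 27 points lie below 0.

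Enzymes and carriers that mature or load these proteins formed a list of 13 genes, 12 of them tested, among them the furin-type proteases that trim fibrillin and the copper transporter that feeds lysyl oxidase. In edgeR 0 were called, and DESeq2 and limma voom also called 0. An unadjusted p under 0.05 was found for 5, and for 2150 of all 14866 genes tested. The count was 3 under DESeq2 and under the length offset, and 4 under the minimum of 10 counts in every heart. It was 6 under upper-quartile factors and with no filter. The lowest p belonged to Furin, which ranged from 71.5 to 80.5 CPM in resistant hearts and from 88.2 to 93.5 CPM in sensitive hearts, with a log2 fold change of 0.24 and an adjusted p of 0.129. Pcsk6, a related protease, had a log2 fold change of -0.26 with an adjusted p of 0.271, which ran from -0.36 without resistant heart 3 to -0.16 without resistant heart 2. Tll2, a relative of the procollagen protease Bmp1, had a log2 fold change of -1.10 with an adjusted p of 0.264, at 0.368 to 1.51 CPM in the 6 hearts.

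Proteases known to cut elastin or fibrillin formed a list of 11 genes, of which 10 were in the table and 7 were tested. In edgeR 0 were called and 2 had an unadjusted p under 0.05, and DESeq2 and limma voom also called 0. Elane, neutrophil elastase, had 0 counts in all 6 hearts, an upper limit of 3 counts in a heart, and Mmp12, macrophage elastase, had between 5 and 12. Ctss, a lysosomal elastase of macrophages, had a log2 fold change of -0.42 with an adjusted p of 0.162, and it was -0.27 without resistant heart 2 and called with no filter (adjusted p = 0.0364). Mmp14 had a log2 fold change of -0.37 with an adjusted p of 0.276, and it was -0.14 without resistant heart 2 (adjusted p = 0.758). Mmp9 had one of -0.72 with an adjusted p of 0.476, which ran from -1.21 without sensitive heart 1 to -0.37 without sensitive heart 3.

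Genes around the TGF-beta that the Ltbp proteins hold formed a list of 24, all tested. Of these, 2 were called, against 1.44% of all genes tested, and 10 had an unadjusted p under 0.05, as did 2150 of all 14866, and the log2 fold change was below 0 for 14 and above 0 for 10. Itgb6, a subunit of an integrin that frees TGF-beta from its latent complex, stood at 28.6, 28.0 and 31.8 CPM in resistant hearts and 23.3, 18.9 and 14.5 CPM in sensitive hearts. For Itgb6 all sensitive hearts were below all resistant hearts, with a log2 fold change of -0.64 (SE 0.14, adjusted p = 0.0319). The call was not firm against the loss of a heart: Itgb6 kept an adjusted p under 0.05 in 1 of 6 fits that left out 1 heart, the fit without sensitive heart 1, with adjusted p up to 0.0923 in the others. The 3 ligands were not called, and their log2 fold changes were -0.34 for Tgfb1 (adjusted p = 0.16), 0.16 for Tgfb2 (0.663) and 0.10 for Tgfb3 (0.784).

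Markers of the cells that make or surround the fibers are given for both genotypes, and their part in the Fbn1 result was not tested. Of 54 markers tested in 12 lists, edgeR called 0 and 12 had an unadjusted p under 0.05, while limma voom called 0 and DESeq2 called 4, of which 2 were macrophage, 1 atrial and 1 smooth muscle markers. In the same fits 214 of all 14866 genes were called by edgeR, 205 of 14866 by limma voom and 409 of the 10520 with an adjusted p by DESeq2. With no filter edgeR called 618 of 28183 genes and 13 of the markers, among them 4 blood, 3 macrophage, 2 pericyte and 2 atrial markers, and upper-quartile factors, the length offset and the minimum of 10 counts in every heart gave 1 call each. None of 6 fibroblast markers was called, and 4 were below 0 (2 without resistant heart 2). The lowest p was that of Lum, at 66.0 to 81.0 CPM in resistant and 59.0 to 61.6 CPM in sensitive hearts, which did not overlap, with a log2 fold change of -0.26 and an adjusted p of 0.155. Ddr2, Dpt and Tcf21 were at -0.11, -0.04 and -0.15, and Pdgfra was at 0.14. Without resistant heart 2, Ddr2, Dpt and Tcf21 were at -0.02, 0.01 and 0.14, and Lum was at -0.16. Pdgfra was at 0.02 without resistant heart 3. The 6 fibroblast markers summed to 1393, 1399 and 1218 CPM in resistant hearts and 1582, 1443 and 1349 CPM in sensitive hearts. Most of the sum came from Gsn, and the genotypes overlapped. Gsn, which other cells also express, had a log2 fold change of 0.17 with an adjusted p of 0.351.

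None of 6 smooth muscle markers was called and 4 were below 0 (6 without resistant heart 2), with sums of 342, 267 and 350 CPM in resistant hearts and 303, 324 and 285 CPM in sensitive hearts. The lowest p was that of Acta2, with a log2 fold change of -0.45 and an adjusted p of 0.118, and Cnn1 was at -0.58 with an adjusted p of 0.342. Acta2 was called under DESeq2 (adjusted p = 0.0325) and with no filter (9.05e-05). Among fits that left out 1 heart, only that without resistant heart 2 called Acta2 (-0.62, adjusted p = 0.00498), and it was at -0.30 (0.288) without resistant heart 3. Smtn was the most abundant, with a log2 fold change of 0.02 and an adjusted p of 0.937. Its sign turned without resistant heart 2 or sensitive heart 2. Tagln, a defining marker, stayed under 1 CPM in every heart, the highest being 0.934. Overlapping genes were looked up only for the microfibril and elastic fiber genes, so whether overlap lowered the count of Tagln is not known. None of 5 pericyte markers was called and 5 were below 0, though Rgs5 lay above 0 under DESeq2, RLE factors, no filter and the length offset. Of these 5, 3 had an unadjusted p under 0.05: Cspg4 at -0.46 (adjusted p = 0.0969) and Kcnj8 at -0.24 (0.225), whose genotypes did not overlap, and Pdgfrb at -0.33 (0.144). Among fits that left out 1 heart, only that without sensitive heart 1 called Cspg4 (-0.61, adjusted p = 0.0314). With no filter Cspg4 (0.00659) and Pdgfrb (0.0113) were called. Rgs5 was the most abundant, with a log2 fold change of -0.0012 and an adjusted p of 0.996, and the list summed to 1343, 1327 and 1274 CPM in resistant and 1298, 1302 and 1155 CPM in sensitive hearts.

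None of 6 endothelial markers was called and 5 were below 0 (3 without resistant heart 2, and 6 under upper-quartile factors and under the minimum of 10 counts in every heart), with sums of 1015, 1065 and 898 CPM in resistant hearts and 941, 924 and 767 CPM in sensitive hearts. Kdr was the most abundant, with a log2 fold change of -0.50 and an adjusted p of 0.0694, which was 0.0449 without sensitive heart 1 and 3.35e-08 with no filter, and its log2 fold change was -0.33 without sensitive heart 3. Pecam1, which marks all endothelium, had a log2 fold change of 0.0016, and it lay below 0 under upper-quartile factors, under the minimum of 10 counts and in 3 of 6 fits that left out 1 heart. Sensitive heart 3 had the lowest endothelial sum.

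All 5 macrophage markers were below 0 and 0 were called, with sums of 179, 236 and 153 CPM in resistant hearts and 156, 148 and 123 CPM in sensitive hearts. Csf1r was the most abundant, with a log2 fold change of -0.31 and an adjusted p of 0.379 (0.0361 with no filter), and Mrc1, of resident macrophages, had the lowest p, with a log2 fold change of -0.52 and an adjusted p of 0.0549. All 4 atrial markers were also below 0 and 0 were called, with sums of 191, 246 and 157 CPM in resistant hearts and 166, 139 and 158 CPM in sensitive hearts, led by Nppa with a log2 fold change of -0.18 and an adjusted p of 0.432. Myl7, whose genotypes did not overlap, was at -0.55 with an adjusted p of 0.0799, and Myl4 at -0.57 with an adjusted p of 0.0893. Resistant heart 2 had the highest macrophage and atrial sums. Without it all 5 macrophage markers stayed below 0, from -0.37 for Mrc1 (adjusted p = 0.209) to -0.04 for Csf1r (0.927), as did all 4 atrial markers, from -0.36 for Myl7 (0.305) to -0.01 for Sln (0.991), and Fbn1 was at -0.39 (0.044). Without resistant heart 3 the adjusted p was under 0.05 for Mrc1 (0.0411), C1qa (0.0166), Myl7 (0.0406) and Myl4 (0.00992). How much atrium each sample held is not stated.

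Markers of the valves, where elastic fibers are dense, were scarce. Of 5 valve markers 4 were tested, all 4 below 0 (3 without sensitive heart 2 or 3) and 0 called, and they summed to 21.3, 17.0 and 16.4 CPM in resistant hearts and between 14.9 and 16.3 CPM in sensitive hearts, just short of overlapping. Comp was the most abundant, with a log2 fold change of -0.18 and an adjusted p of 0.622 (-0.06 without resistant heart 1), and Acan had at most 9 counts in a heart. Of 5 epicardial markers 2 were tested and 0 called, with Wt1 at 4.20 to 7.18 CPM and a log2 fold change of -0.41 (adjusted p = 0.371) that was -0.24 without resistant heart 3, while Upk3b, Upk1b and Krt19 had at most 32 counts.

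Fat, nerve sheath and blood markers were also not called. All 3 adipocyte markers tested were above 0, with a median of 0.93, and summed to 3.68, 4.49 and 2.56 CPM in resistant hearts and 10.3, 2.95 and 3.27 CPM in sensitive hearts. The median was the value of Adipoq, which moved to 0.46 without sensitive heart 1 and 0.42 without resistant heart 3. Cfd was the most abundant, at 0.46 (adjusted p = 0.685), and turned to -0.59 without sensitive heart 1. Plin1, at most 1.14 CPM, was at 1.32 with an unadjusted p of 0.0259 (adjusted p = 0.266) and genotypes that did not overlap, and Ucp1 had 0 counts in all hearts. All 4 blood markers were also above 0, but all 4 were below 0 without sensitive heart 2, with Hbb-bs at -0.59, and limma voom put 1 below 0. They summed to 928, 1233 and 523 CPM in resistant hearts and 775, 3103 and 393 CPM in sensitive hearts. The highest sum was that of sensitive heart 2.

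The genes whose pattern over the 6 hearts was most like that of Fbn1 were found by the root mean square difference of centred log2 CPM, among 9077 genes whose log2 CPM averaged 3 or more. The nearest 5 were Angptl2 (0.035), Phtf1 (0.040), Ddx58 (0.046), Col5a1 (0.048) and Lama4 (0.049), against a median of 0.27 over the candidates. Col5a1 encodes a chain of the fibril-starting collagen V and Lama4 a laminin chain of vessel basement membranes.

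Since they were picked for their likeness to a gene that differed between the genotypes, their fold changes are a description. Of the 5, 3 were called, Angptl2 at -0.41 (adjusted p = 0.0203), Col5a1 at -0.45 (adjusted p = 0.0218) and Lama4 at -0.43 (adjusted p = 0.0198). These calls were made again in 2, 3 and 2 of 6 fits that left out 1 heart, in that order. The other 2, Phtf1 at -0.44 (adjusted p = 0.135) and Ddx58 at -0.37 (adjusted p = 0.108), were not called. Of the 9 other microfibril and elastic fiber genes, Ltbp4 was the most like Fbn1, at a difference of 0.107 with 127 candidates nearer. Ltbp1 followed at 0.171 with 844 nearer and Loxl1 at 0.180 with 1052 nearer. Fbln1, Fbln5 and Lox, at 0.296, 0.308 and 0.310, were farther from Fbn1 than the median candidate.

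Upstream windows of 300 bases around the start of transcription, from RefSeq on GRCm38.p6, were on hand for 7 of the 10 genes, in 12 windows, and were searched on both strands for 4 short motifs. The letters GGGCGG, the core of the GC box, were in 7 of the 12 windows and in 35.7% of 32851 windows of all genes. Those 7 windows belonged to 5 genes and held 60.3% to 81.3% G and C, and the other windows of the 12 held 48.0% to 58.7%. The median over all windows was 52.7%, and a motif of G and C alone depends on that share. CAGACA, a SMAD site, was in 5 of 12 and in 21% of all, TGACTCA, the AP-1 site, in 1 of 12 and in 5.2% of all, and GGAATG, the TEAD site, in 0 of 12 and in 14.7% of all. The windows of a gene overlap in part, so they are not separate cases. The runs of 30 bases around the first GGGCGG are shown for Fbn1 and Ltbp4, the pair of genes whose hearts did not overlap, 5′ to 3′ on the gene's strand (minus for both), with the motif in capitals, CCGCCC being GGGCGG read on the other strand. The Fbn1 run, at chr2:125506606-125506635, lies inside an annotated exon of Fbn1. The Ltbp4 run, at chr7:27337799-27337828, lies outside its exons.
Fbn1: aggcccgggtccGGGCGGtggctggcagag
Ltbp4: caggagaactcaCCGCCCaggcaaccccgc
A match of these letters is not evidence that a factor binds there.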

How the data were processed

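RNA of 6 whole mouse hearts, 3 per genotype, was sequenced. The authors deposited raw counts per gene, made with fastp, STAR and featureCounts on mm10 per the labels, with no versions given, and a gene length in bases for every gene. The counts were used as deposited. The gene length, whose unit is neither a count nor a normalised value, served only for levels per kilobase and for the length trend. The authors' own DESeq2 comparison was not used here.

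Counts were fitted with edgeR 4.0.16 (R 4.3.3): filterByExpr at its defaults (minimum count 10), TMM factors, the quasi-likelihood F test with genotype as the only term, and Benjamini-Hochberg adjustment over all 14866 genes that passed. CPM are counts per 1000000 counts of the TMM-scaled library. Fold changes are sensitive over resistant, and the 95% intervals come from the same fit. The typical biological variation was 11.1% (the square root of the common dispersion). The 10 genes had between 110 and 8123 counts in a heart, and counts of amplified fragments are not independent molecules. The 4 ratios were tested by exact permutation over hearts, adjusted over the 4.

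Alternatives were DESeq2 1.42.0, limma voom 3.58.1, scaling by RLE or upper quartile, a fit without the filter, one with 10 counts or more in every heart, no globin or mitochondrial genes, a loess offset on gene length, a robust prior, an adjusted p under 0.1 and leaving out each heart. The fitting code was first tested on simulated data.

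The 10 genes, the wider lists and the marker lists were chosen with earlier results of these data known. Named genes were all 10 genes, every called gene of each wider list or else the 3 with the lowest p, the most abundant and any called gene of each marker list, and the 5 genes most like Fbn1. Some genes that this rule takes are not reported here. Further genes, such as Vcan, Tgfb1 to Tgfb3, Pecam1 and the other markers given values, were named after their values were seen. Ctsv was not in the table, and Poglut2, Poglut3 and Ccn2 were matched by the older symbols Kdelc1, Kdelc2 and Ctgf. Of 54532 genes, 54495 were in GENCODE M21, 98.3% with the same coordinates.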

Additional observations from a re-analysis of the deposited data

How the results depend on the processing

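No paired analysis was possible because the labels give the hearts no shared replicate numbers, litters or days. Fbn1 and Hmcn1 kept their direction and an adjusted p under 0.05 under all 9 alternatives of test, scaling, filter, length and prior and in 6 of 6 fits without 1 heart. The median log2 fold change of all genes stayed between -0.02 and 0.00 under those alternatives, and 6 of the 10 genes were below 0 under each of them. In fits without 1 heart this count ran from 5 (without resistant heart 2) to 8 (without resistant heart 3).

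The count of all genes called, 214, was 409 with DESeq2, 618 with no filter and 402 at an adjusted p under 0.1, and it lay between 80 and 158 without 1 heart, where fewer samples were fitted. DESeq2 called 2 of the 10 genes. The wider matrix list gave 1 to 2 calls without 1 heart, the TGF-beta list 0 to 1, and the elastolytic list gave 1 (Ctss) with no filter. With the GENCODE length, an alternative chosen after the data were seen, Ltbp3 stood at 3.78 CPM per kilobase.

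Direction turned for genes near 0 or with 1 heart apart. Over the fits without 1 heart the log2 fold change ran from -0.0098 to 0.15 for Fbln2, below 0 without resistant heart 1 or 3 (-0.0054), from -0.059 to 0.013 for Ltbp3, highest without resistant heart 2, and from -0.0091 to 0.20 for Lox, lowest without resistant heart 3. It ran from -0.042 to 0.18 for Myh6, from -0.045 to 0.077 for Smtn, from -0.038 to 0.054 for Rgs5, from -0.59 to 0.79 for Cfd and from -0.59 to 1.14 for Hbb-bs, the last below 0 without sensitive heart 2. Rgs5 was also above 0 with DESeq2 (0.0031), RLE factors (0.0021), no filter (0.0028) and the length offset (0.012). The causes were not tested. Of the other values of 39 named genes, 573 kept direction and side of the threshold, 24 lost the call and 8 gained it. Further markers given values above were not in this tally. Among those, Pecam1, Tcf21 and Dpt turned direction in some fits. Acta2, Cspg4, Pdgfrb, Mrc1, C1qa, Myl7 and Myl4 gained a call in some.

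The spread between hearts left the intervals of Eln and Loxl1 on both sides of 0. Lox had only 110 to 156 counts in a heart. Fiber protein, cross-links and the place of expression in the heart were not measured.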
